A study of Mus musculus with 2 samples.

Results

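Glycolysis, glucose transport and lactate handling were followed through 35 genes in the cranial sutures of newborn mice. The genes were chosen by name: the enzymes of glycolysis, glucose carriers, lactate dehydrogenases, lactate carriers, and the pyruvate dehydrogenase gate with its kinases. Of these, 31 had a target among the 23930 amplicon targets of the panel. Pfkfb2, Pgk1, Pgam1 and Eno1 were not analysed here, nor was the glycolytic enzyme Gapdh from the further genes listed. The tissue was coronal, sagittal and lambdoid suture of wildtype pups at postnatal day 3, read in 2 bulk RNA libraries that form 1 group. They are called library 1 and library 2 after the number in their titles. The labels name no treatment or other genotype, give both libraries batch number 1, and do not tie either library to particular pups. Differences between them therefore describe the spread within 1 group, which may be partly technical, and not an effect of a condition.

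Glycolysis splits glucose into pyruvate in the cytosol and yields ATP without oxygen. Most of its steps are run by small enzyme families, and skeletal muscle uses forms of its own, such as Pfkm, Pgam2 and Eno3, beside forms found in many tissues. Pyruvate then either becomes lactate through lactate dehydrogenase or enters the mitochondrion, where the pyruvate dehydrogenase complex turns it into acetyl-CoA and the Pdk kinases hold that complex back. Bone-forming cells are known for strong aerobic glycolysis, and fast muscle for glycolysis during contraction. A suture dissected as whole tissue can hold RNA of both.

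Library 1 held 5663344 reads and library 2 held 15802610, so that 1 read was worth 0.177 CPM (reads of a target scaled to the library total) in library 1 and 0.0633 CPM in library 2. A count of 0 allows up to 3 reads, or 0.530 and 0.190 CPM. The cell type label reads suture stem cells, but the protocol takes RNA from the tissue itself and names no sort. All 8 osteoblast markers and all 14 skeletal muscle markers measured exceeded 10 CPM in both libraries. Muscle markers summed to 49616 and 16637 CPM in libraries 1 and 2, a 2.98-fold difference, and 13 of 14 were higher in library 1. Chondrocyte markers summed to 1568 and 4703 CPM, with 10 of 10 higher in library 2. Neuron markers summed to 194 and 739 CPM, with 8 of 8 higher in library 2. Olfactory sensory neuron markers summed to 96.4 and 524 CPM, with 6 of 6 higher in library 2. Of all 23930 targets, 8986 were higher in library 1 and 11025 in library 2. Of the 9192 targets with a mean of at least 10 CPM, 4323 were higher in library 1 and 4868 in library 2. None of these 4 marker lists held a marker at 0 in both libraries. In bulk tissue, fewer cells of a type and less RNA per cell cannot be told apart.

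No gene of the 31 fell below 1 CPM in either library, and 27 stood at 10 CPM or above in each. Of the remaining 4, Hk3 and Pfkfb1 were below 10 CPM in both libraries, Slc2a1 in library 1 and Pklr in library 2. The median of the 31 mean levels was 47.3 CPM, beside 3.29 CPM over all targets. Together they took 0.910% of the reads of library 1 (exact 95% interval 0.902 to 0.918) and 0.635% of those of library 2 (0.631 to 0.639). Aldoa, Pkm and Ldha alone gave 57.2% of the glycolytic reads in library 1 and 51.2% in library 2. Amplicons differ in efficiency, and each gene has 1. Ranking genes against each other therefore ranks reads and not transcripts, whereas the same gene can be compared between libraries.

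**Figure D1:**
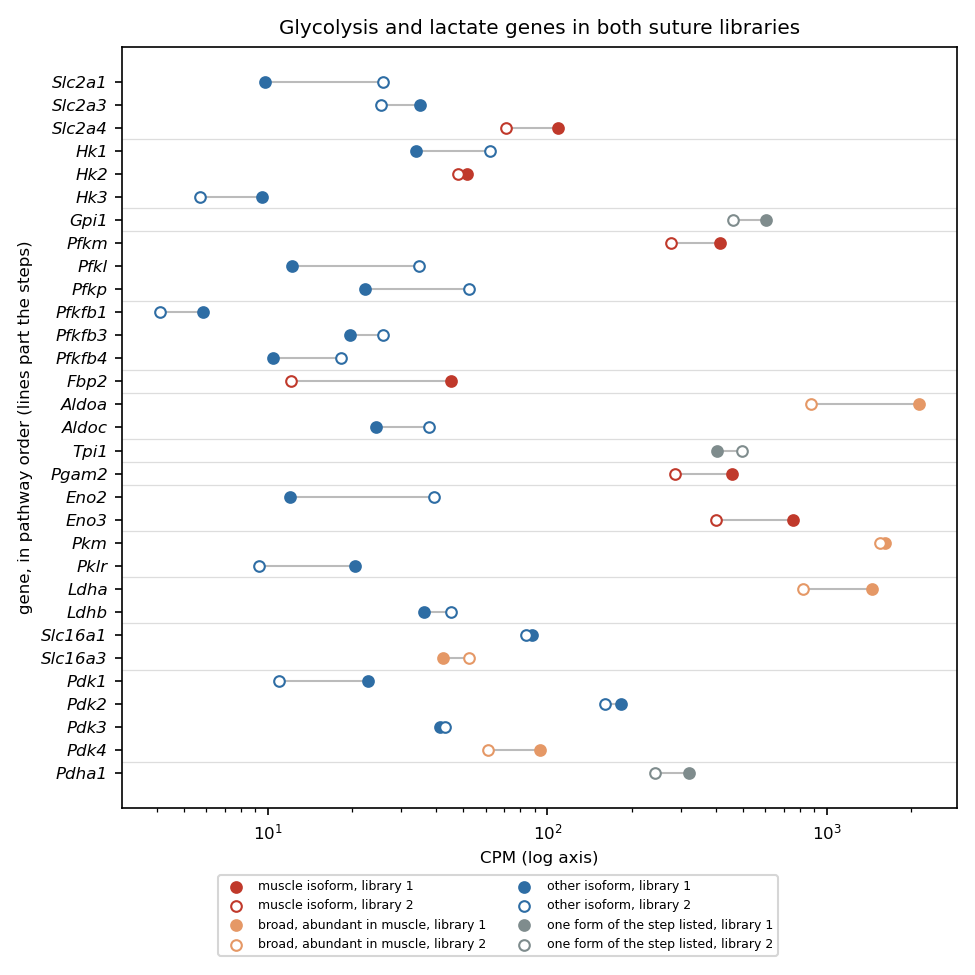
CPM (log axis) of the 31 measured genes in pathway order, with filled points for library 1, open points for library 2 and colour for the isoform class. Aldoa, Pkm and Ldha lie farthest right. The muscle isoforms Pfkm, Pgam2, Eno3, Slc2a4 and Fbp2 have the filled point on the right, and Pfkl, Pfkp, Eno2 and Slc2a1 have it on the left.

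The reads of each gene were compared between the libraries with an exact two-sided binomial test, with Benjamini-Hochberg adjustment across the 23930 targets and a threshold of 0.05. A gene that passed is said to favour the library where it was higher. Of the 31 genes, 16 favoured library 1, 11 favoured library 2 and 4 favoured neither. Over all targets 17.1% were called higher in library 1 and 20.0% higher in library 2. Among 9192 well-read targets, those whose mean reached 10 CPM, these shares were 32.5% and 37.0%. Most well-read targets thus differed beyond counting error, and passing the test alone sets no gene apart. With a difference of at least 2-fold as a further condition, 4 genes were higher in library 1 (Fbp2, Aldoa, Pklr and Pdk1) and 4 in library 2 (Slc2a1, Pfkl, Pfkp and Eno2). That rule called 7.85% and 8.66% of the well-read targets. On the log2(CPM + 1) scale, the middle 90% of those targets ran from -1.19 to 1.14 (library 1 minus library 2), with a median of -0.05. Outside that range lay 6 of the 31 genes, namely Fbp2 and Aldoa above it and Slc2a1, Pfkl, Pfkp and Eno2 below it.

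The genes were grouped by isoform class, and the counts are to be read beside the 32.5% and 37.0% of well-read targets that favoured library 1 and library 2. All 6 muscle isoforms (Slc2a4, Hk2, Pfkm, Fbp2, Pgam2 and Eno3) had a higher CPM in library 1, and 5 of them passed the test. Of the 17 other isoforms, 5 favoured library 1, 9 favoured library 2 and 3 favoured neither. This class holds broad forms as well as forms of other tissues, and Pfkfb1 in it is known from liver and muscle. The median difference was 0.64 for the muscle isoforms and -0.31 for those other isoforms. The muscle class was assigned from general knowledge of the families. A further 5 genes, Aldoa, Pkm, Ldha, Slc16a3 and Pdk4, are abundant in muscle but also broadly expressed, and were kept as a class of their own. Their median difference was 0.61, with 4 higher in library 1 and Slc16a3 higher in library 2.

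**Figure D2:**
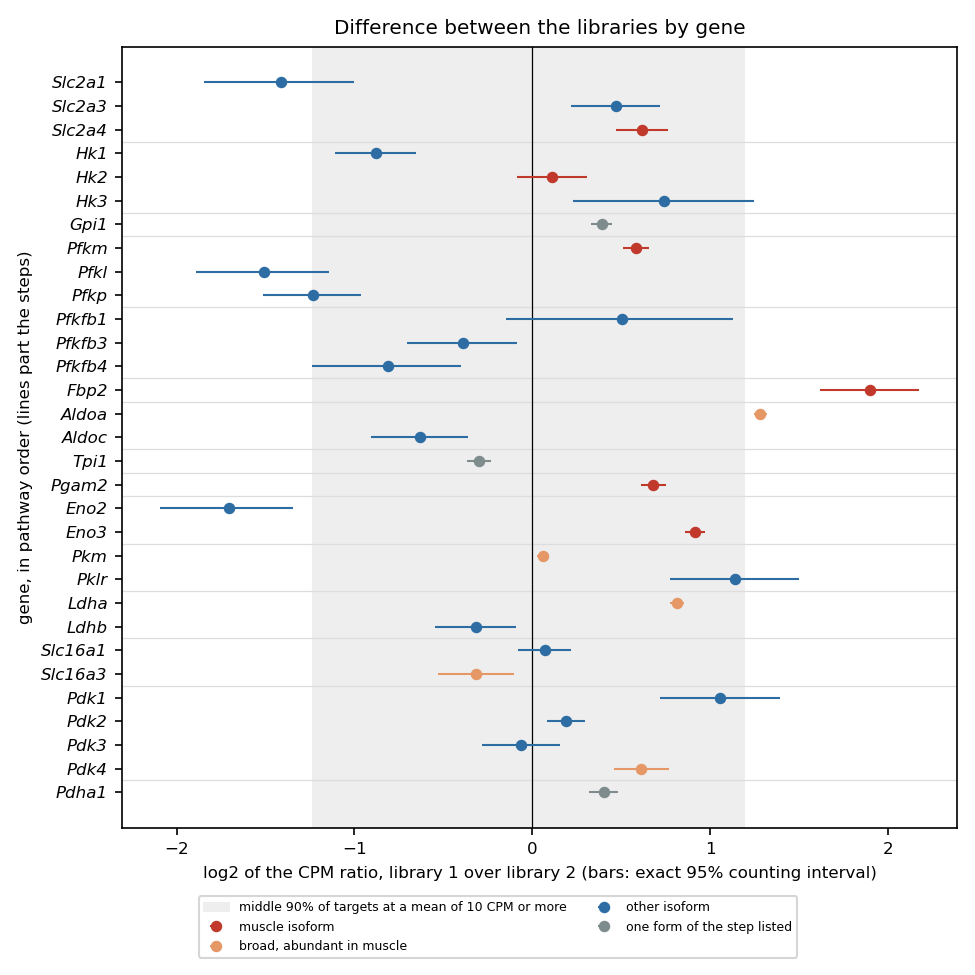
Log2 of the CPM ratio, library 1 over library 2, for the 31 genes in pathway order, with exact 95% counting intervals and the middle 90% of well-read targets (mean of at least 10 CPM) shaded. Within the hexokinase, phosphofructokinase and enolase steps the muscle isoform lies to the right of Hk1, of Pfkl and Pfkp, and of Eno2. Fbp2 and Aldoa lie beyond the shaded range on the right.

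Glucose enters cells through the GLUT carriers. Slc2a4, the insulin-responsive carrier of muscle and fat, was read at 109 CPM in library 1 and 70.9 CPM in library 2. It was 1.53-fold higher in library 1 (exact 95% interval 1.39 to 1.69), and it gave the most reads of the carriers listed in both libraries. Slc2a1, the carrier found in most tissues and in osteoblasts, went the other way, with 9.71 and 25.8 CPM. That is 2.66-fold higher in library 2 (2.00 to 3.59), and its log2 difference of -1.32 stood at percentile 3.66 of well-read targets. Slc2a3, a carrier of high affinity known from neurons and blood cells, was at 34.96 and 25.2 CPM, 1.38-fold higher in library 1 (1.16 to 1.65). The muscle carrier and Slc2a3 thus lay on the same side, and Slc2a1 alone of the carriers listed was higher in library 2.

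Hexokinase traps glucose as its phosphate. Hk2, the form of insulin-sensitive muscle and fat, was read at 51.6 and 47.7 CPM and did not differ detectably, at a fold of 1.08 (0.941 to 1.24, adjusted p = 0.474 in the exact binomial test). Hk1, the form of brain and many other tissues, was at 33.9 CPM in library 1 and 62.4 CPM in library 2, 1.84-fold higher in library 2 (1.58 to 2.16). The order of their reads was therefore opposite in the libraries, Hk2 above Hk1 in library 1 and below it in library 2. Hk3, a form known from myeloid blood cells, was low at 9.54 and 5.70 CPM and 1.67-fold higher in library 1 (1.17 to 2.37). Of 8 neutrophil markers, 6 favoured library 1 and Ltf favoured library 2, beside 32.5% and 37.0% of well-read targets. The neutrophil markers summed to 1064 and 573 CPM, none was at 0 in both libraries, and their part in the Hk3 values was not tested. Gpi1, which turns glucose 6-phosphate into fructose 6-phosphate, was at 606 and 462 CPM, 1.31-fold higher in library 1 (1.26 to 1.37).

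Phosphofructokinase commits sugar to glycolysis, and its isoforms differed in opposite directions. Pfkm, the muscle subunit, was read at 414 CPM in library 1 and 277 CPM in library 2, 1.497-fold higher in library 1 (1.42 to 1.57). Pfkl, the liver-type subunit, was at 12.2 and 34.6 CPM, 2.84-fold higher in library 2 (2.21 to 3.70). Pfkp, the platelet-type subunit, was at 22.2 and 52.3 CPM, 2.35-fold higher in library 2 (1.95 to 2.86). Pfkm exceeded both other subunits in reads in each library, yet the difference between the libraries had the opposite sign. The Pfkfb enzymes set the level of fructose 2,6-bisphosphate, the activator of phosphofructokinase. Pfkfb3, a strong producer of it, was at 19.6 and 25.7 CPM, and Pfkfb4 at 10.4 and 18.3 CPM. They were 1.31-fold (1.06 to 1.63) and 1.76-fold (1.32 to 2.36) higher in library 2. The Pfkfb3 call was lost under scaling to the median library ratio (adjusted p = 0.0782, exact binomial test). Pfkfb1, known from liver and muscle, was lowest at 5.83 and 4.11 CPM and was not called (adjusted p = 0.234, exact binomial test).

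Fbp2, the muscle fructose bisphosphatase that works against phosphofructokinase, showed the largest difference of the 31 genes. It was read at 45.03 CPM in library 1 and 12.1 CPM in library 2, 3.73-fold higher in library 1 (3.08 to 4.52). On the log2 scale this was 1.81, percentile 99.1 of well-read targets. Fbp1, the liver form from the list of further pathway genes, was near the limit at 0.177 and 1.46 CPM, 1 read in library 1, and was called higher in library 2 (adjusted p = 0.0281, exact binomial test).

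Aldolase splits the phosphorylated hexose. Aldoa, the main form of muscle and also of red cells and many other tissues, gave the most reads of the 31 genes in library 1, at 2140 CPM, and stood at 880 CPM in library 2. The difference was 2.43-fold (2.37 to 2.49), and Aldoa ranked 25 among all targets in library 1 and 78 in library 2. Aldoc, the form of brain, was at 24.4 and 37.7 CPM, 1.55-fold higher in library 2 (1.28 to 1.88). Tpi1, which interconverts the triose phosphates and has a single gene, was one of the abundant genes that did not follow the muscle forms. It was at 403 and 497 CPM, 1.23-fold higher in library 2 (1.18 to 1.29).

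Pgam2, the muscle phosphoglycerate mutase, was read at 459 CPM in library 1 and 287 CPM in library 2, 1.602-fold higher in library 1 (1.53 to 1.68). Its broad partner Pgam1 was not analysed here, so no isoform comparison was possible at that step. Enolase gave the widest contrast within 1 step. Eno3, the muscle enolase, was at 758 and 402 CPM, 1.89-fold higher in library 1 (1.82 to 1.963). Eno2, the neuronal enolase, was at 12.0 and 39.2 CPM, 3.27-fold higher in library 2 (2.54 to 4.26), at percentile 2.09 of well-read targets. The neuron markers were all 8 higher in library 2, as were 4868 of the 9192 well-read targets. They were led by the tubulin Tubb3 at 67.1 and 338 CPM, and their part in the Eno2 difference was not tested. The broad enolase Eno1 was not analysed here.

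The bases before the RefSeq start sites (GRCm38.p6, 250 or, for Eno2, the 189 that hold no exon of its neighbour Lrrc23) are shown for the enolase pair that differed in opposite directions and for the muscle isoforms Pgam2 and Fbp2, which were higher in library 1. Capitals mark E-boxes, CANNTG, the letters bound by the MyoD family, and matches to the MEF2 site of muscle genes. Both strands were searched, and sequences run 5′ to 3′ on the strand of the gene.
Eno3, chr11:70656926-70657175, plus strand: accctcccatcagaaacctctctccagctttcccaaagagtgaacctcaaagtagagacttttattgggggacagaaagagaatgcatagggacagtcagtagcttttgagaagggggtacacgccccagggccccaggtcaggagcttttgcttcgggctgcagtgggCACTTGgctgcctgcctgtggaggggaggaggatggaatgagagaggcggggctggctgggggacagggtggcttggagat
Eno2, chr6:124769674-124769862, minus strand: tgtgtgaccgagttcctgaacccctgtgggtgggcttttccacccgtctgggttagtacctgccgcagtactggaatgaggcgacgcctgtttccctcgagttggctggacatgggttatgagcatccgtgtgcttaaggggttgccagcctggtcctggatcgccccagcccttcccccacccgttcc
Pgam2, chr11:5803797-5804046, minus strand: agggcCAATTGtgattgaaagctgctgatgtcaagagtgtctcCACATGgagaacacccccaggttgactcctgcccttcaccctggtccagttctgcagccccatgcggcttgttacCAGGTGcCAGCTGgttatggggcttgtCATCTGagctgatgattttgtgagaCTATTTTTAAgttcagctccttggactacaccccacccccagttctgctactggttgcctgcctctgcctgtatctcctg
Fbp2, chr13:62858401-62858650, minus strand: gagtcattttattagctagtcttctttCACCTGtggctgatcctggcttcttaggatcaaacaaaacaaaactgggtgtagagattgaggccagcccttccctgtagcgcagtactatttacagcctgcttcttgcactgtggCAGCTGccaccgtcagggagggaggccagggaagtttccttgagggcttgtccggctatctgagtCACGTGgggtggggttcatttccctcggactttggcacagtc
The Pgam2 stretch held 5 E-boxes and 1 MEF2 match, and the Fbp2 stretch held 3 E-boxes. The Eno3 stretch held 1 E-box and no MEF2 match. The 189 bases shown for Eno2 hold neither, and the 1 E-box of its full window lies in the part not shown. An E-box occurred in 66.2% of all 32851 promoter stretches of that length and the MEF2 site in 2.92%, so an E-box in the window is common. Promoters were found for 33 of the 35 genes, with 53 stretches in all, of which 35 held an E-box. Of the muscle isoforms, 4 of 5 genes held one before at least 1 start, as did 19 of the 28 other genes. A MEF2 match lay before a start of 1 of those 5 genes, Pgam2, and of 1 of those 28, Pfkfb1. The Fbp2 stretch runs 22 bases into the first exon of GENCODE. These matches describe letters and not binding.

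Pyruvate kinase closes the pathway. Pkm, which codes for the M1 and M2 forms by splicing, was read at 1616 and 1549 CPM and gave the most reads of the 31 genes in library 2. The difference was small, at a fold of 1.04 (1.02 to 1.07, adjusted p = 0.00215 in the exact binomial test), and it was lost when libraries were scaled without the 10 most abundant targets (adjusted p = 0.144). The adult muscle form M1 and the form M2 cannot be told apart from a single amplicon value. Pklr, the kinase of red cells and liver, was at 20.5 and 9.30 CPM, 2.20-fold higher in library 1 (1.71 to 2.83). Of 8 erythroid markers, 6 favoured library 1 and none favoured library 2, and they summed to 1508 and 1264 CPM. Over all targets, 17.1% favoured library 1 and 20.0% library 2, and among well-read targets 32.5% and 37.0%. All 5 liver markers were higher in library 1, with sums of 76.3 and 6.14 CPM, and Fgb was at 0 in library 2. No marker of either list was at 0 in both libraries, and their part in the Pklr values was not tested.

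Lactate dehydrogenase followed the split of aldolase. Ldha, the subunit that favours lactate and is abundant in fast muscle, was at 1451 CPM in library 1 and 824 CPM in library 2, 1.76-fold higher in library 1 (1.71 to 1.81). Ldhb, the subunit of heart and oxidative tissue, was at 36.2 and 45.1 CPM, 1.25-fold higher in library 2 (1.07 to 1.46). That call was lost under scaling to the median library ratio (adjusted p = 0.0520, exact binomial test). Lactate leaves and enters cells through the monocarboxylate carriers. Slc16a1 (MCT1) was at 87.9 and 83.8 CPM and was not called (fold 1.05, 0.945 to 1.16, adjusted p = 0.615 in the exact binomial test). Slc16a3 (MCT4), the exporter of glycolytic cells, was at 42.2 and 52.5 CPM, 1.24-fold higher in library 2 (1.08 to 1.44). The exporter thus differed in the other direction from Ldha.

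Ldha is a textbook target of the hypoxia factors, which bind the core letters ACGTG. The 250 bases before the first RefSeq start of Ldha held that core in 3 stretches, shown in capitals, of which the matches number 5 when both strands are counted.
Ldha, chr7:46845554-46845803, plus strand: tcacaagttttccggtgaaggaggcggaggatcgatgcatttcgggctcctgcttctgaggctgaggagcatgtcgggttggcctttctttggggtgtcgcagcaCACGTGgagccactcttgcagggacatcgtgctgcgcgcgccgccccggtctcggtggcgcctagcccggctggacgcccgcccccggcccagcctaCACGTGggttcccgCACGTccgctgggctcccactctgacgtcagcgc
The core occurred in 16.6% of all promoter stretches, and in 20 of the 53 stretches of the 33 pathway genes that had one. Where it reads CACGTG it is also an E-box. The bases after this Ldha start and after the Pgam2 start were not found in a GENCODE transcript of either gene, so these starts rest on RefSeq alone. The other Ldha stretch, chr7:46846832-46847081, whose start matched a GENCODE transcript, held 0 matches to the core. Of 17 genes listed for hypoxia and glucose response, 8 favoured library 1, 4 favoured library 2 and 5 favoured neither. Over all targets these shares were 17.1% and 20.0%, and among well-read targets 32.5% and 37.0%. All 17 genes reached 1 CPM in both libraries. Epas1, a hypoxia factor, was at 149 and 370 CPM, 2.48-fold higher in library 2 (2.31 to 2.67). Egln1, the oxygen sensor that marks such factors for breakdown, was at 77.3 and 34.7 CPM, 2.23-fold higher in library 1 (1.959 to 2.53). The list therefore did not lie on 1 side. Txnip, a glucose-induced inhibitor of glucose uptake, was its most abundant member at 378 and 196 CPM, 1.92-fold higher in library 1 (1.82 to 2.03). Mlxip, a glucose-sensing factor, was at 191 and 176 CPM, and the arrestin relative Arrdc4 at 17.1 and 29.6 CPM, on opposite sides.

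The pyruvate dehydrogenase gate was read through its enzyme and its kinases. Pdha1, the alpha subunit of the first enzyme, was at 321 and 243 CPM, 1.32-fold higher in library 1 (1.25 to 1.40). In the list of further genes of the complex, 4 of 8 favoured library 1, none favoured library 2 and 4 favoured neither, beside 32.5% and 37.0% of well-read targets. Dlat, the acetyltransferase core, was at 207 and 98.5 CPM, a fold of 2.10 (1.95 to 2.27), and Pdhb at 162 and 100.4 CPM, a fold of 1.62 (1.49 to 1.75). Pdhx and Dld had folds of 1.85 and 1.43. The phosphatase Pdp1 was at 11.8 and 13.98 CPM and was not called (adjusted p = 0.474, exact binomial test).

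The kinases that switch the complex off were not uniform. Pdk2, the broad form, gave the most reads at 184 and 161 CPM, 1.14-fold higher in library 1 (1.06 to 1.23). Pdk4, the form raised in muscle by fasting, was at 93.9 and 61.4 CPM, 1.53-fold higher in library 1 (1.37 to 1.70). Pdk1, a hypoxia target, was at 22.8 and 10.9 CPM, 2.08-fold higher in library 1 (1.64 to 2.63). Pdk3 was at 41.1 and 43.0 CPM and was not called, at a fold of 0.958 (0.822 to 1.11). So 3 of the 4 kinases favoured library 1 and none favoured library 2, beside 32.5% and 37.0% of well-read targets.

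The isoform comparison within a step does not depend on the scaling of the libraries, which cancels in the ratio of ratios. The efficiency of an amplicon cancels where 1 isoform is set against 1 other, whereas in a sum of several others their efficiencies weight the sum. Reads of the muscle isoform were set against the summed reads of the other isoforms measured for its step, and the 4 steps that allow this were tested with Fisher's exact test, two-sided and adjusted over the 4. The test compares 2 libraries and covers counting error only. Since 32.5% and 37.0% of well-read targets favoured library 1 and library 2 by themselves, a low p alone sets no step apart. For enolase the reads are those of Eno3 and Eno2 alone, since Eno1 was not analysed here, and a share of the whole step would be lower by its reads. Eno3 made up 98.4% of these reads in library 1 (exact 95% interval 98.0 to 98.8) and 91.1% in library 2 (90.4 to 91.8). The ratio of Eno3 to Eno2 was 6.17 times as high in library 1 (4.78 to 8.07, adjusted p = 1.63e-67 in Fisher's exact test). For phosphofructokinase, Pfkm made up 92.3% (91.2 to 93.3) and 76.1% (74.95 to 77.2), a ratio of ratios of 3.78 (3.22 to 4.45, adjusted p = 3.54e-76 in the exact test). These 2 steps had the highest ratios of the 4, with the ratio for enolase holding for Eno2 as the only partner.

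Hexokinase and glucose transport showed smaller shifts. Hk2 made up 54.3% of hexokinase reads in library 1 (49.96 to 58.5) and 41.2% in library 2 (38.9 to 43.5), with a ratio of ratios of 1.69 (1.39 to 2.07, adjusted p = 9.15e-08, exact test). Since Hk2 itself was not called, this shift rests on Hk1. Slc2a4 made up 70.9% (67.7 to 73.9) and 58.1% (55.9 to 60.3) of carrier reads, with a ratio of ratios of 1.75 (1.47 to 2.09, adjusted p = 1.10e-10, exact test). Against Slc2a3 alone, the other carrier with the most reads, the ratio of ratios was 1.11 (0.907 to 1.36) and was not called (adjusted p = 0.320, exact test). The glucose transport shift was thus called only with Slc2a1 among the others, while Slc2a4 itself was 1.53-fold higher in library 1.

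The 5 steps with a broad gene abundant in muscle were compared in the same way after their values were seen, with p adjusted over all 9 steps. Aldoa against Aldoc gave a ratio of ratios of 3.77 (3.12 to 4.57, adjusted p = 4.87e-54, exact test) and Ldha against Ldhb gave 2.19 (1.87 to 2.58, adjusted p = 1.05e-24, exact test). Pdk4 against the other 3 kinases gave 1.33 (1.17 to 1.504, adjusted p = 8.00e-06, exact test). The remaining steps went the other way. Pkm against Pklr gave 0.474 (0.368 to 0.610, adjusted p = 8.08e-09, exact test) and Slc16a3 against Slc16a1 gave 0.766 (0.639 to 0.918, adjusted p = 0.00351, exact test).

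**Figure D3:**
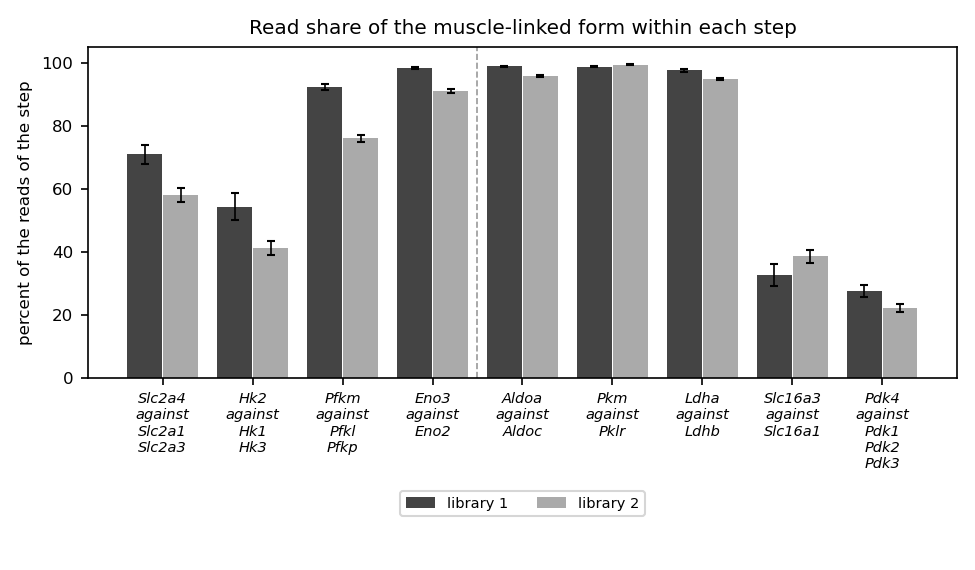
Percent of the reads of each step that came from the form named first, in library 1 (dark) and library 2 (light), with exact 95% intervals for counting error. Left of the dashed line are the muscle isoforms, all with a higher share in library 1. Right of it are broad genes abundant in muscle, where Pkm and Slc16a3 had a lower share in library 1.

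The muscle isoforms were set beside the skeletal muscle markers. The 6 isoforms summed to 1837 and 1095 CPM, a ratio of 1.68, beside 2.98 for the sum of the muscle markers. Their differences ran from 0.11 to 1.81 with a median of 0.64, and those of the 14 markers from -0.01 to 2.40 with a median of 1.36. Among the markers, Acta1 (muscle actin) was 3.91-fold, Myh8 (perinatal myosin) 3.01-fold and Mylpf (myosin light chain) 2.55-fold higher in library 1. Ryr1, the calcium release channel, was the marker that was not called, at 193 and 194 CPM. The ranges of isoforms and markers overlapped, with Fbp2 inside the upper part of the marker range and Hk2 near Ryr1. No test of isoforms against markers was made, and the part of muscle content in the isoform values was not tested.

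**Figure D4:**
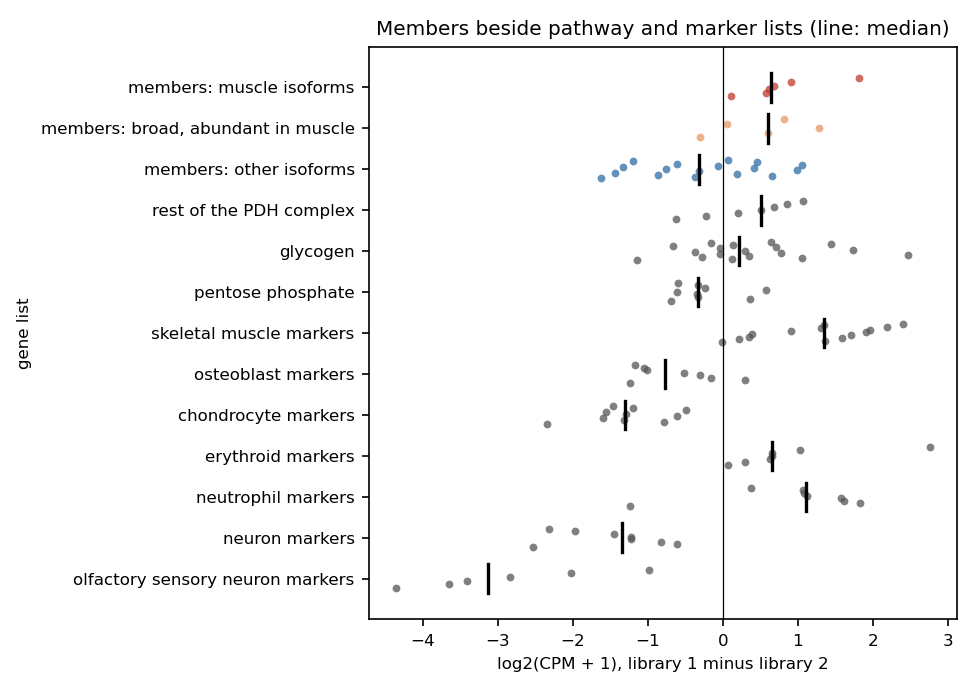
Differences on the log2(CPM + 1) scale, library 1 minus library 2, for genes whose mean reached 1 CPM, with 1 point per gene and a line at each median. The muscle isoforms (median 0.64) lie between 0.11 and 1.81, with a lower median than the skeletal muscle markers (1.36). The other isoforms (median -0.31) straddle 0, while chondrocyte, neuron and olfactory markers lie left of 0.

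Pathways that branch from glycolysis were described from lists of further genes. For glycogen, 8 of 19 genes favoured library 1, 4 favoured library 2 and 7 favoured neither. Over all targets these shares were 17.1% and 20.0%, and among well-read targets 32.5% and 37.0%. Tissue forms of the enzymes did not lie on 1 side. Pygm, the muscle phosphorylase that releases sugar from glycogen, was at 878 and 563 CPM, 1.56-fold higher in library 1 (1.51 to 1.61). Pygb, the brain phosphorylase, was at 45.7 and 102 CPM, 2.23-fold higher in library 2 (1.95 to 2.55). Ugp2, which makes the UDP-glucose for glycogen, was 2.77-fold (2.49 to 3.08) and Pgm1, a phosphoglucomutase, 2.16-fold (1.76 to 2.65) higher in library 1. Pgm2, a related mutase, was at 129 and 74.8 CPM, on the same side. Gys1, the glycogen synthase of muscle and other tissues, was 1.29-fold higher in library 2 (1.15 to 1.46), and Pygl, the liver phosphorylase, was not called at 11.8 and 10.8 CPM. The subunits of phosphorylase kinase, which switches phosphorylase on, were divided. Phkg1, its muscle catalytic subunit, was at 16.4 and 2.15 CPM, 7.63-fold higher in library 1 (5.10 to 11.7). Phkb and Phkg2 favoured library 2, at 94.3 and 115 CPM and at 19.6 and 31.6 CPM. Phka1 and Phka2 were not called, at 23.7 and 24.4 CPM and at 16.4 and 16.9 CPM.

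The pentose phosphate genes, which draw glucose 6-phosphate toward NADPH and ribose, were compared in the same way. Of 9 genes, 6 favoured library 2, 2 favoured library 1 and 1 favoured neither, with a median difference of -0.33. Of well-read targets, 37.0% favoured library 2 and 32.5% library 1, with a median of -0.05. Tkt, a transketolase and the most abundant, was at 198 and 248 CPM, 1.26-fold higher in library 2 (1.17 to 1.34). The dehydrogenases H6pd and Pgd, the lactonase Pgls and the epimerase Rpe had folds toward library 2 of 1.26, 1.54, 1.18 and 1.67. Taldo1, the transaldolase, was 1.29-fold higher in library 1 (1.17 to 1.43). Among 17 genes of gluconeogenesis and rarer glycolytic forms, 10 favoured library 2, 2 favoured library 1 and 5 favoured neither, beside 20.0% and 17.1% of all targets. Pck1 and Pck2, the cytosolic and mitochondrial carboxykinases, were 2.21-fold (1.84 to 2.68) and 2.12-fold (1.78 to 2.55) higher in library 2. Bpgm, which makes the red-cell regulator of oxygen binding, had a fold toward library 2 of 1.40, Adpgk, an ADP-dependent glucokinase, of 1.76, and the phosphatase G6pc3 of 1.34. Ldhc and G6pc were read 0 times in both libraries. Of 16 further sugar and monocarboxylate carrier genes, 2 favoured library 1, 3 favoured library 2 and 11 favoured neither, beside 17.1% and 20.0% of all targets. Bsg, the chaperone that brings Slc16a1 and Slc16a3 to the membrane, was at 499.5 and 419 CPM, 1.19-fold higher in library 1 (1.14 to 1.25). Emb, a chaperone of the same family, was at 30.7 and 76.2 CPM, 2.48-fold higher in library 2 (2.11 to 2.92). Mpc2, a subunit of the mitochondrial pyruvate carrier, was 1.48-fold higher in library 1 (1.33 to 1.65).

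In the GENCODE M21 annotation, whose GRCm38 coordinates are those of mm10, several genes described above were placed as follows. Eno3 spans 70657202 to 70662513, Pgam2 5801640 to 5803733 and Slc2a4 69942539 to 69948188 on chromosome 11. Pfkm lies on chromosome 15 from 98092589 to 98132451 and Fbp2 on chromosome 13 from 62836877 to 62858422. On chromosome 7 lie Aldoa, 126795234 to 126800751, and Ldha, 46841475 to 46855627. Another entry named Aldoa spans 126800790 to 126809108 on the same strand, and which entry the amplicon reads is not stated. Where in a gene its amplicon sits is not stated in the labels. Exons of 8 of the 31 genes overlap exons of another coding gene, Pfkm with Senp1, Pfkp with Pitrm1, Aldoa with Fam57b and Tpi1 with Spsb2 among them, and how reads of such stretches were assigned is not stated.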

How the data were processed

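For each of 23930 amplicon targets, the authors deposited a CPM value, that is, its reads scaled to the total of its library, in 2 libraries made with an Ion AmpliSeq mouse transcriptome panel, per the labels' protocols. The submitters' processing notes list mm10 as the build. No aligner, counter or filter is stated. All CPM values were whole multiples of what 1 read is worth (100% came within 0.01 of a whole read, at most 0.00791 away), which recovers totals of 5663344 and 15802610 reads. With no molecular identifiers stated, intervals cover counting error only.

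Differences were taken on log2(CPM + 1), whose pseudocount of 1 CPM understates the change of low genes. Folds carry exact 95% Clopper-Pearson intervals from the recovered reads. The libraries were compared per target with the exact two-sided binomial test (scipy 1.17.1, Python 3.11.15) under Benjamini-Hochberg adjustment, which was tested on simulated data, and isoforms within a step with Fisher's exact test. These tests compare libraries and not conditions. Other scalings, pseudocounts and filters were tried.

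All 35 genes were named. From 6 further pathway lists the text names the 3 genes with the highest mean and, among well-read genes, the 2 with the largest difference toward each library, and from 11 marker lists the 3 with the highest mean may be named. Of the genes this rule names, 1 is not reported here. Fbp1, Ryr1, Ldhc, G6pc, Gys1, Pygl, Phkg1, Phka1, Phka2 and Fgb were named after their values were seen. The members and lists were chosen with earlier results of these data known.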

Additional observations from a re-analysis of the deposited data

How the results depend on the processing

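With at least 2-fold as a further condition, 4 genes instead of 16 were higher in library 1 and 4 instead of 11 in library 2. Scaling to the median library ratio shifted every difference by 0.05 on the log2 scale. It left 16 genes higher in library 1 and 9 in library 2, with Ldhb and Pfkfb3 no longer called (adjusted p = 0.0520 and 0.0782, exact binomial test). Scaling without the 10 most abundant targets shifted differences by -0.03 and left 15 and 11, without Pkm. Over both scalings and pseudocounts of 0.5 and 5 CPM, 121 of the single-gene comparisons kept direction and call and these 3 did not. A pseudocount changes neither the sign of a difference nor the test. All comparisons with another pseudocount were thus bound to be among the 121, and only the scalings could have changed a call. The median difference of the muscle isoforms stayed between 0.61 and 0.70 under all alternatives run. That of all other genes listed, 0.06, was 0.11 under scaling to the median library ratio and turned to -0.18 when Aldoa, Pkm, Ldha, Slc16a3 and Pdk4 were counted with the muscle isoforms, since those 5 then left it. The glucose transport ratio of ratios fell to 1.11 against Slc2a3 alone. Taking 1 library alone, the median level was 42.2 to 52.3 CPM. Each of the 31 genes also reached 2 CPM in both libraries, and limiting the test to targets with a mean of 1 CPM left 16 and 11. No paired analysis was possible because there is 1 group. Counting error limits Pfkfb1 and Hk3 most, with 33 and 54 reads in library 1.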

Other observations

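Further marker lists were read as a description of the tissue behind these values. Of all targets, 17.1% passed the test toward library 1 and 20.0% toward library 2. Among well-read targets these shares were 32.5% and 37.0%. Macrophage and osteoclast markers had 4 of 8 that passed the test toward library 1 and 1 toward library 2, and summed to 3643 and 2395 CPM. Mmp9, a protease of osteoclasts, led them at 1784 and 1354 CPM. Of 8 endothelial markers, 6 passed the test toward library 1 and the others did not pass, with sums of 745 and 534 CPM, led by Pecam1, a junction protein of vessels, at 286 and 163 CPM. Of 7 adipocyte markers, 2 passed the test toward library 1 and 1 toward library 2, namely Ucp1, the heat-producing carrier of brown fat, at 18.9 and 53.9 CPM. Of 8 osteoblast markers, 7 were higher in library 2 and 1, Col1a2, was higher in library 1, with sums of 149909 and 161485 CPM.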
